A study of Mus musculus with 4 samples.

Results

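The nuclear genes that encode subunits of the mitochondrial respiratory chain and of ATP synthase were followed through the cell classes of the mouse sciatic nerve. Members were chosen by name, as every gene listed as Nduf with a letter a, b, c, s or v and a number, Uqcr, Sdha to Sdhd, Cox4 to Cox8 or Atp5. Names of pseudogenes ending in -ps were left out, which removed 1 name. The rule found 83 genes of the 22716 listed in any library. Of these, 37 belong by name to complex I, 4 to complex II, 8 to complex III, 17 to complex IV and 17 to ATP synthase. The rule did not use measured values.

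Single cells were profiled by Drop-seq, an scRNA-seq method in which each barcode marks a cell and each unique molecular identifier (UMI) marks a captured transcript. All 4 libraries came from wild-type CD1 mice. Adult nerve was taken uninjured, and the distal segment was taken 3 days after nerve resection (3 DPI). Both adult samples were cleared with myelin removal beads. Neonatal nerve was prepared with beads at postnatal days 2 to 3, and by fluorescence-activated cell sorting (FACS) at postnatal days 3 to 4. Each condition was 1 library, and the labels do not say how many animals each held. There is therefore no replicate error and no test between conditions. Intervals below are exact 95% intervals that cover counting error only. Injury, age, preparation and library cannot be told apart beyond what the 2 neonatal preparations show side by side.

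In the respiratory chain, complexes I and II pass electrons from NADH and succinate to ubiquinone, complex III passes them to cytochrome c, and complex IV passes them to oxygen. Complexes I, III and IV pump protons, and ATP synthase uses the gradient to make ATP. Most subunits are encoded in the nucleus and imported, and several complex IV subunits exist as a common isoform and a tissue-restricted isoform. In peripheral nerve, mitochondria of Schwann cells, fibroblasts and vessel cells serve cells whose reliance on oxidative metabolism and glycolysis is known to differ.

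The libraries held between 4513814 and 8123103 UMIs. After filtering, 2162 cells were kept at 3 DPI, 1837 in uninjured nerve, 5419 in the neonatal bead library and 2190 in the neonatal FACS library, with medians of 996 to 1797.5 UMIs per cell. No pair of libraries shared more than 1 kept barcode. Clusters were assigned to classes from marker genes. The classes were Schwann-like, endoneurial-like mesenchymal, other mesenchymal-like, endothelial-like, VSM/pericyte-like (VSM, vascular smooth muscle) and immune-like. Every cluster had at least 5 markers of its class detected, and Pecam1, Plvap, Rgs5, Myh11 and Acta2 were among the leading genes of clusters named for them, while most mesenchymal and Schwann-like clusters had no marker of their class among their 10 leading genes. A neonatal Schwann-like cluster, with 451 of its 471 cells from the FACS library, was led by Pmel and Dct, which are known from pigment cells, although 7 Schwann markers were detected in it. Immune-like cells numbered 16 in uninjured nerve and 38 in the neonatal bead library, under the minimum of 50 cells set for a class, so immune-like values are compared in neither. Levels are given as UMIs per 1000000 UMIs of a class in a library (CPM), or as a percent of all its UMIs. Capture may differ between genes and was not measured, so levels are compared between classes and libraries for the same gene, not between genes.

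Member UMIs were spread over many genes. Over all libraries the members held 558074 UMIs, and the 10 with the most UMIs (Cox4i1, Cox6c, Cox6a1, Cox8a, Atp5e, Atp5b, Cox6b1, Cox7b, Ndufa4 and Cox7a2) held 30.8% of them. Of these, 7 encode subunits of complex IV by name, Atp5e and Atp5b encode the epsilon and the catalytic beta subunit of ATP synthase, and Ndufa4 was named as a complex I subunit but is now known to associate with complex IV. At the other end, 4 members had fewer than 100 UMIs in all. These were Cox7b2 with 4, Cox6a2 with 11, Cox8b with 24 and Atp5g2 with 55 UMIs. Cox7b2 is known as a testis isoform, Cox6a2 and Cox8b as striated muscle isoforms, and Atp5g2 encodes the same mature subunit c as Atp5g1 and Atp5g3.

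Promoter sequence is shown because the members form 1 gene group with known shared regulators. RefSeq windows of 300 bases (250 before to 50 after the start, build GRCm38.p6) were matched to 69 of the 83 members. Letters of 3 factors known for respiratory chain promoters were searched on both strands. The NRF1 letters, GCGCA and GCGC with 1 base between them, were in the windows of 17 member genes (24.6%), against 5.19% of 27025 genes. The ETS letters CCGGAAG, which GABP recognises, were in 16 members (23.2%) against 9.93% of genes. The YY1 letters AANATGGCG were in 11 members (15.9%) against 2.76%. By contrast, the hypoxia response letters ACGTG were in 19 members (27.5%) against 21.8% of genes, the RBPJ letters GTGGGAA were in 4 (5.80%) against 7.25%, and the CArG box was in 0 members against 1.81%. Among all 32851 windows the 6 shares were 4.6%, 8.86%, 2.38%, 19.6%, 6.38% and 1.63%. A match of letters is a description, not a site, and no match says only that the letters are not in this window.

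The windows of 5 members are shown, chosen for their different patterns below. Cox6a1 and Sdha, the flavoprotein subunit of complex II, were present in every class, Ndufa8 was highest in endothelial-like cells, Cox8a was highest in VSM/pericyte-like cells, and Ndufa4 was lower there than elsewhere in 3 libraries. All are on the minus strand and are written 5′ to 3′ in the direction of transcription, with matches to the NRF1 and ETS letters in capitals. They lie at chr5:115348909-115349208 (Cox6a1), chr13:74350191-74350490 (Sdha), chr2:36049289-36049588 (Ndufa8), chr19:7217567-7217866 (Cox8a) and chr6:11907401-11907700 (Ndufa4).
Cox6a1: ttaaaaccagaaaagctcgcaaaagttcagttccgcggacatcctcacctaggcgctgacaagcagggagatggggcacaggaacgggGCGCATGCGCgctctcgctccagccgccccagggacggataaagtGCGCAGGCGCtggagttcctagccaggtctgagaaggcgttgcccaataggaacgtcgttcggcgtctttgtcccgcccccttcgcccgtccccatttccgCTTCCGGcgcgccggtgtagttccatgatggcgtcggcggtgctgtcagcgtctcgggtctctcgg
Sdha: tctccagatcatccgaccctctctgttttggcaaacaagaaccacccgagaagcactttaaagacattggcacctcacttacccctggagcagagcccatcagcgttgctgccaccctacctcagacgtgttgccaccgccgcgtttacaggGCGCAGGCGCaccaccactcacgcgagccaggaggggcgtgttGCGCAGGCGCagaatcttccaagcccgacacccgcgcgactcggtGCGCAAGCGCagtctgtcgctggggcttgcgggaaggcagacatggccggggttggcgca
Ndufa8: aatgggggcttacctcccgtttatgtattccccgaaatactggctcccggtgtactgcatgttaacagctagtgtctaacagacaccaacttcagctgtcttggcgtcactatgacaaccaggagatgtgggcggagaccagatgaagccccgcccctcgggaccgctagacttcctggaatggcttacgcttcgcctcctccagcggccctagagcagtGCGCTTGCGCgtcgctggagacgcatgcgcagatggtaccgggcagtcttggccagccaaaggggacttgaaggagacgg
Cox8a: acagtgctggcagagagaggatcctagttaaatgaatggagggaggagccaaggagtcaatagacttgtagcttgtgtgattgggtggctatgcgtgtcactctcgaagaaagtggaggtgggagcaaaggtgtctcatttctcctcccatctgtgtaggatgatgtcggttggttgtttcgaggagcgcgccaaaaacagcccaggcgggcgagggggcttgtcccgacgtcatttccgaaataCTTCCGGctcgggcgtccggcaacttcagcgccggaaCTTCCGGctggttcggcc
Ndufa4: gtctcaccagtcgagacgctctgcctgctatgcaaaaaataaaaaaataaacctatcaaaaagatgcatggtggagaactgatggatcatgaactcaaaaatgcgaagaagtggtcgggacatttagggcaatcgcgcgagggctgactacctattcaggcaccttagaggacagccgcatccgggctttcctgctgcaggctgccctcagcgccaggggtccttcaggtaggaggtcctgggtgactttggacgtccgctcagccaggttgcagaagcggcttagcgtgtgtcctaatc
Counting to the first base of a match, Cox6a1 held the NRF1 letters 162 and 117 bases before its start and the ETS letters 16 bases before it. Sdha held the NRF1 letters 3 times, at 98, 55 and 10 bases before the start. The reverse complement of the NRF1 letters lay 30 bases before the start of Ndufa8. Cox8a had the ETS letters 5 bases before and 32 bases after its start, and neither set of letters was in the Ndufa4 window.

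In uninjured nerve, VSM/pericyte-like cells carried the largest member share and endoneurial-like cells the smallest. The members made up 3.30% of UMIs (3.23 to 3.37) in 183 VSM/pericyte-like cells. They made up 1.94% (1.92 to 1.96) in 418 endothelial-like cells, 1.65% (1.61 to 1.68) in 359 Schwann-like cells, 1.49% (1.46 to 1.51) in 443 other mesenchymal-like cells and 1.39% (1.37 to 1.42) in 418 endoneurial-like cells. Neighbours in this order did not have overlapping counting intervals. Single cells overlapped widely: among cells with at least 500 UMIs the median share was 2.74% in VSM/pericyte-like cells, with the middle 50% of cells between 1.88 and 4.11%, and 1.99% (1.66 to 2.31) in endothelial-like cells. Each complex took part in the difference. Complex I was 1.17% of UMIs in VSM/pericyte-like and 0.619% in Schwann-like cells, complex II was 0.0914 and 0.0492%, complex III was 0.367 and 0.163%, complex IV was 0.892 and 0.431%, and ATP synthase was 0.781 and 0.383%.

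The same class was at the top in the other libraries, where the distance to the rest was smaller. Its member share was 2.82% (2.75 to 2.89) at 3 DPI, 3.27% (3.22 to 3.32) in the neonatal bead library and 3.04% (2.97 to 3.10) in the neonatal FACS library. Relative to all other cells of the library the summed ratio was 2.02 (1.97 to 2.07) in uninjured nerve, 1.44 (1.41 to 1.48) at 3 DPI, 1.24 (1.22 to 1.26) in the bead library and 1.35 (1.32 to 1.38) in the FACS library. With at least 20 UMIs over both groups of cells as the minimum and 1.5-fold as the fixed size, 63 of 79 members were higher in VSM/pericyte-like cells of the uninjured nerve (23.6% of all genes measured there). The counts were 36 of 80 at 3 DPI (28.2% of all genes), 9 of 79 in the bead library (16.5%) and 19 of 79 in the FACS library (23.9%). Lower by as much were 1, 2, 1 and 2 members in the same order, where 30.3, 25.7, 29.9 and 25.6% of all genes were lower. VSM/pericyte-like cells were the class with the highest level for 70 of 76 members in uninjured nerve (13.6% of all genes), 46 of 76 at 3 DPI (8.6%), 45 of 77 in the bead library (13.3%) and 41 of 75 in the FACS library (14.7%), over classes of at least 50 cells. Immune-like cells had 1.76% (1.73 to 1.79) at 3 DPI and 2.27% (2.20 to 2.34) in the FACS library.

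**Figure D1:**
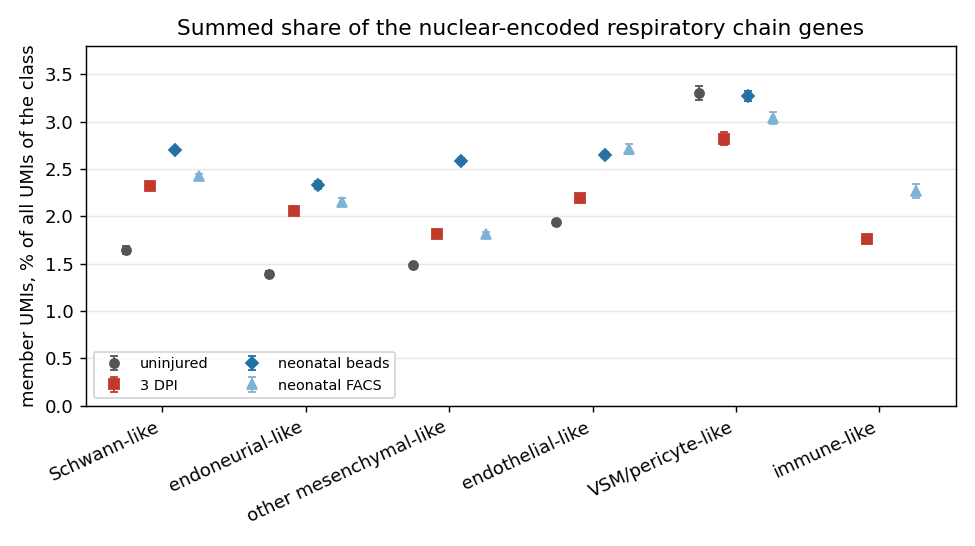
Member UMIs as a percent of all UMIs of a class (vertical axis) for each class of at least 50 cells (horizontal axis) and library (colour and shape), with exact 95% Poisson intervals for counting error. VSM/pericyte-like cells are highest in each library, and in the other 4 classes measured in uninjured nerve the uninjured point is the lowest.

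Ndufa4l2 and Cox4i2 stood apart from the other members. Ndufa4l2 is a paralog of Ndufa4 known to respond to hypoxia and to mark pericytes, and Cox4i2 is the hypoxia-responsive isoform of Cox4i1. Ndufa4l2 was at 572 CPM (483 to 674) in uninjured VSM/pericyte-like cells, 579 (485 to 687) at 3 DPI, 732 (659 to 812) in the bead library and 673 (581 to 776) in the FACS library. In other classes of at least 50 cells it did not exceed 37.6 CPM, the level of endothelial-like cells at 3 DPI. The level in VSM/pericyte-like cells over all other cells was 30.7 (23.0 to 41.4) times in uninjured nerve, 22.5 (17.9 to 28.4) at 3 DPI, 118 (84.8 to 168) in the bead library and 134 (85.8 to 218) in the FACS library. At least 1 Ndufa4l2 UMI was found in 44.8% of uninjured VSM/pericyte-like cells (82 of 183, 37.5 to 52.3%, median depth 1222 UMIs). In Schwann-like cells, which are not known to use this gene, the share was 0.279% (1 of 359, median depth 983 UMIs).

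Cox4i2 had the same distribution at a lower level. It was at 151 CPM (107 to 207) in uninjured VSM/pericyte-like cells, 162 (114 to 224) at 3 DPI, 139 (108 to 176) in the bead library and 215 (164 to 276) in the FACS library. Outside this class its highest level was 10.7 CPM, in endothelial-like cells at 3 DPI. Schwann-like cells of the uninjured nerve had 0 Cox4i2 UMIs, which at the set bound of 3 counts stands for up to 7.23 CPM. In the FACS library 61 UMIs lay in VSM/pericyte-like cells and 2 in all other cells, a ratio of 470 with a counting interval of 125 to 3965. In this class the 3 DPI over uninjured ratio was 1.01 (0.793 to 1.29) for Ndufa4l2 and 1.08 (0.665 to 1.74) for Cox4i2.

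Ndufa4 itself ran the other way at 3 DPI and in both neonatal libraries, but not in uninjured nerve for the class as a whole. There, among classes of at least 50 cells, only endothelial-like cells had a higher level. The uninjured class held Myh11-led and Rgs5-led cells, described below, and its Ndufa4 level and pair share average over both. In the Rgs5-led cells alone Ndufa4 was below its level in each other uninjured class of at least 50 cells. In VSM/pericyte-like cells it was at 461 CPM in uninjured nerve, 277 at 3 DPI, 322 in the bead library and 190 in the FACS library. The ratio to all other cells was 0.504 (0.387 to 0.647) at 3 DPI, 0.524 (0.445 to 0.615) in the bead library and 0.356 (0.267 to 0.466) in the FACS library, while in uninjured nerve the VSM/pericyte-like level lay between those of other mesenchymal-like cells (344 CPM) and endothelial-like cells (532 CPM). Of the UMIs of the pair, Ndufa4l2 made up 55.4% (49.1 to 61.5) in uninjured VSM/pericyte-like cells, 67.7% (60.6 to 74.2) at 3 DPI, 69.4% (65.3 to 73.4) in the bead library and 78.0% (72.2 to 83.0) in the FACS library. Elsewhere its share ranged from 0 of 311 UMIs in FACS endothelial-like cells to 10.7% (7.35 to 14.8) in uninjured endoneurial-like cells. Cox4i1 stayed the main isoform of its pair: Cox4i2 made up 11.9%, 11.6%, 8.11% and 12.9% in the same order, and at most 0.839% in another class. These shares compare UMIs of different transcripts, whose capture may differ. Ndufa4l2 (chr10:127509274-127517154, mm10) overlaps an exon of Shmt2 on the opposite strand, Cox4i1 overlaps one of Emc8, and the use of strand in counting was not given in the sources used here. Cox4i2 lies at chr2:152753916-152765039.

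**Figure D2:**
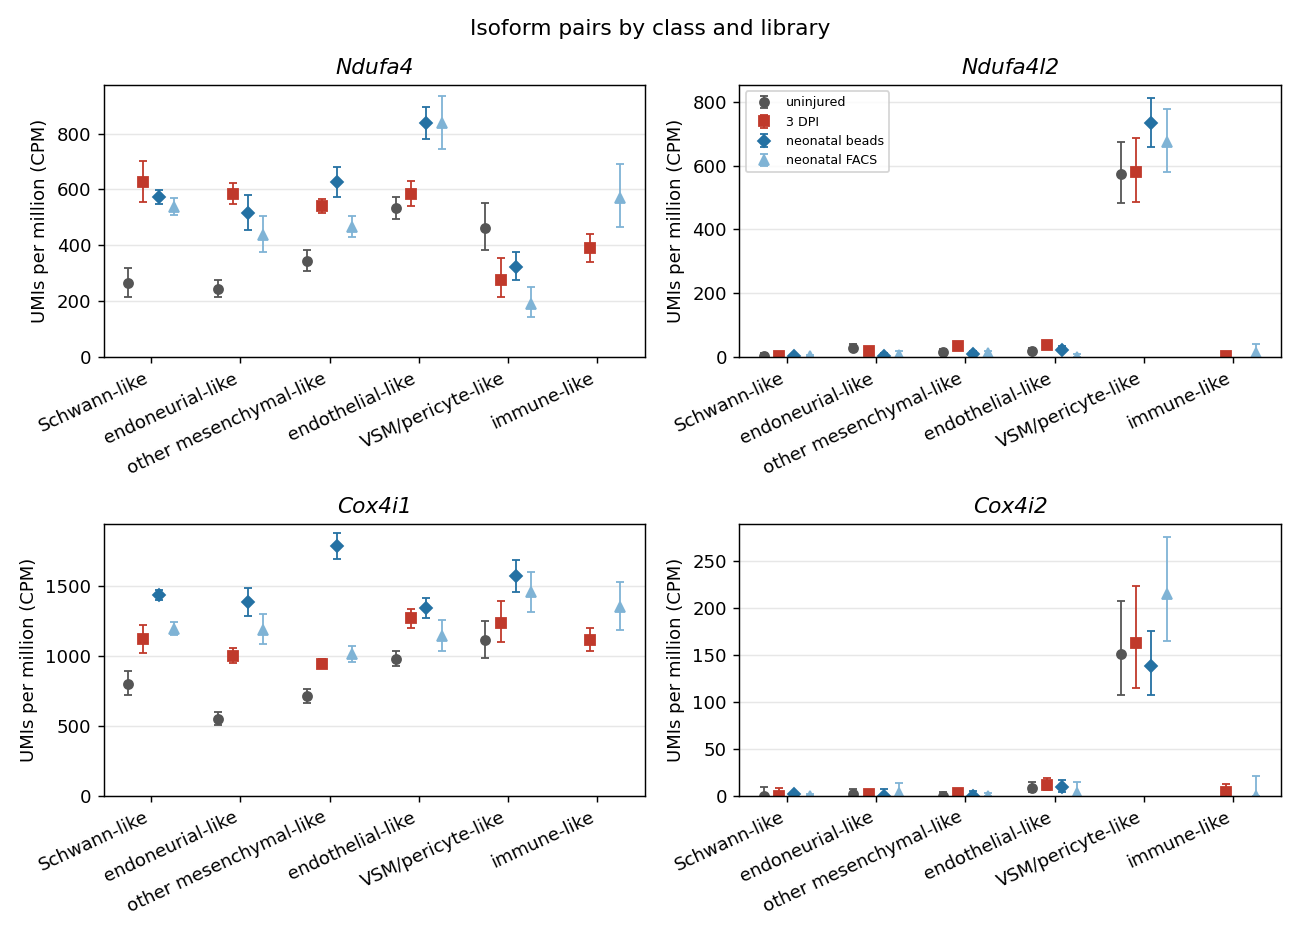
Level in CPM (vertical axis) of Ndufa4, Ndufa4l2, Cox4i1 and Cox4i2 by class (horizontal axis) and library (colour and shape), with exact 95% Poisson intervals. Ndufa4l2 and Cox4i2 are near 0 outside VSM/pericyte-like cells, where Ndufa4 is below the other classes at 3 DPI and in both neonatal libraries.

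The VSM/pericyte-like class held 2 kinds of cell with different member levels. At a finer clustering resolution the 183 uninjured cells split into 98 Myh11-led and 85 Rgs5-led cells, the patterns known from smooth muscle and pericytes. Member UMIs were 4.09% (3.99 to 4.19) of the Myh11-led and 2.01% (1.92 to 2.10) of the Rgs5-led cells. Ndufa4l2 was alike in both, at 558 and 595 CPM. Ndufa4 was at 680 CPM in Myh11-led and 104 CPM in Rgs5-led cells, Sdhc at 545 and 188 CPM, Cox6c at 1790 and 794 CPM, and Cox4i2 at 186 and 94.0 CPM. In the bead library Ndufa4 had the same direction, with 572 CPM in 121 Myh11-led and 159 CPM in 188 Rgs5-led cells, but the member share was 3.70% (3.60 to 3.8) and 3.32% (3.24 to 3.39), so the distance between them was smaller. A further 62 bead cells led by Actg2 had 2.61% and only 154 CPM of Ndufa4l2. The 79 cells at 3 DPI formed 1 cluster with 12669 CPM of Rgs5 and 1718 CPM of Myh11, nearer to the uninjured Rgs5-led cells (9199 and 1368 CPM) than to the Myh11-led cells (924 and 7640 CPM).

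Several members had uneven levels in other classes. Cox6c, a small membrane subunit of complex IV, was highest in endoneurial-like cells in 3 libraries, at 1912 CPM (1843 to 1983) at 3 DPI, 2362 (2231 to 2498) in the bead library and 2306 (2161 to 2457) in the FACS library. In uninjured nerve endoneurial-like cells had 1379 CPM (1309 to 1451), and VSM/pericyte-like cells had 1411 (1268 to 1565), so their counting intervals overlapped. Schwann-like cells had 509 CPM of Cox6c in uninjured nerve and 884 at 3 DPI. The endoneurial-like class was thus the one with the lowest total member share in uninjured nerve and, with VSM/pericyte-like cells, the highest Cox6c. Cox6c overlaps an exon of Vps13b on the opposite strand.

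Ndufa8, an accessory subunit of complex I, was highest in endothelial-like cells in all 4 libraries, at 315 CPM (285 to 346) in uninjured nerve, 388 (352 to 426) at 3 DPI, 417 (378 to 458) in the bead library and 428 (364 to 499) in the FACS library. In each library the next class was VSM/pericyte-like, at 176 to 272 CPM, and the other classes lay between 89.2 and 193 CPM. Within endothelial-like cells it was uneven as well, with 612 CPM in an uninjured cluster led by Gpihbp1 and Btnl9 and 649 CPM in a neonatal bead cluster led by Darc and Vwf. Cox7a2l, known as a supercomplex assembly factor, was also highest in endothelial-like cells, at 364 CPM in uninjured nerve, 458 at 3 DPI, 583 in the bead library and 508 in the FACS library.

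Sdhc, a membrane anchor of complex II, was at 409 CPM (334 to 496) in uninjured VSM/pericyte-like cells and at 79.8 to 113 CPM in the other 4 classes. Its VSM/pericyte-like level was 237 CPM (178 to 309) at 3 DPI, 326 (278 to 381) in the bead library and 212 (161 to 272) in the FACS library. Cox8a, the common isoform of the smallest complex IV subunit, was at 1609 CPM (1456 to 1774) in uninjured VSM/pericyte-like cells and at 378 to 496 CPM in the other 4 classes. It was at 1159 CPM at 3 DPI, 1379 in the bead library and 1160 in the FACS library. Both genes were therefore highest in VSM/pericyte-like cells in each library. The flavoprotein gene Sdha was by comparison flat, between 87.3 CPM in endoneurial-like and 131 CPM in VSM/pericyte-like cells of the uninjured nerve. Sdhb, the iron-sulfur subunit, ranged from 133 to 258 CPM there, and Sdhd, the other membrane anchor, from 61.7 to 115 CPM.

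**Figure D3:**
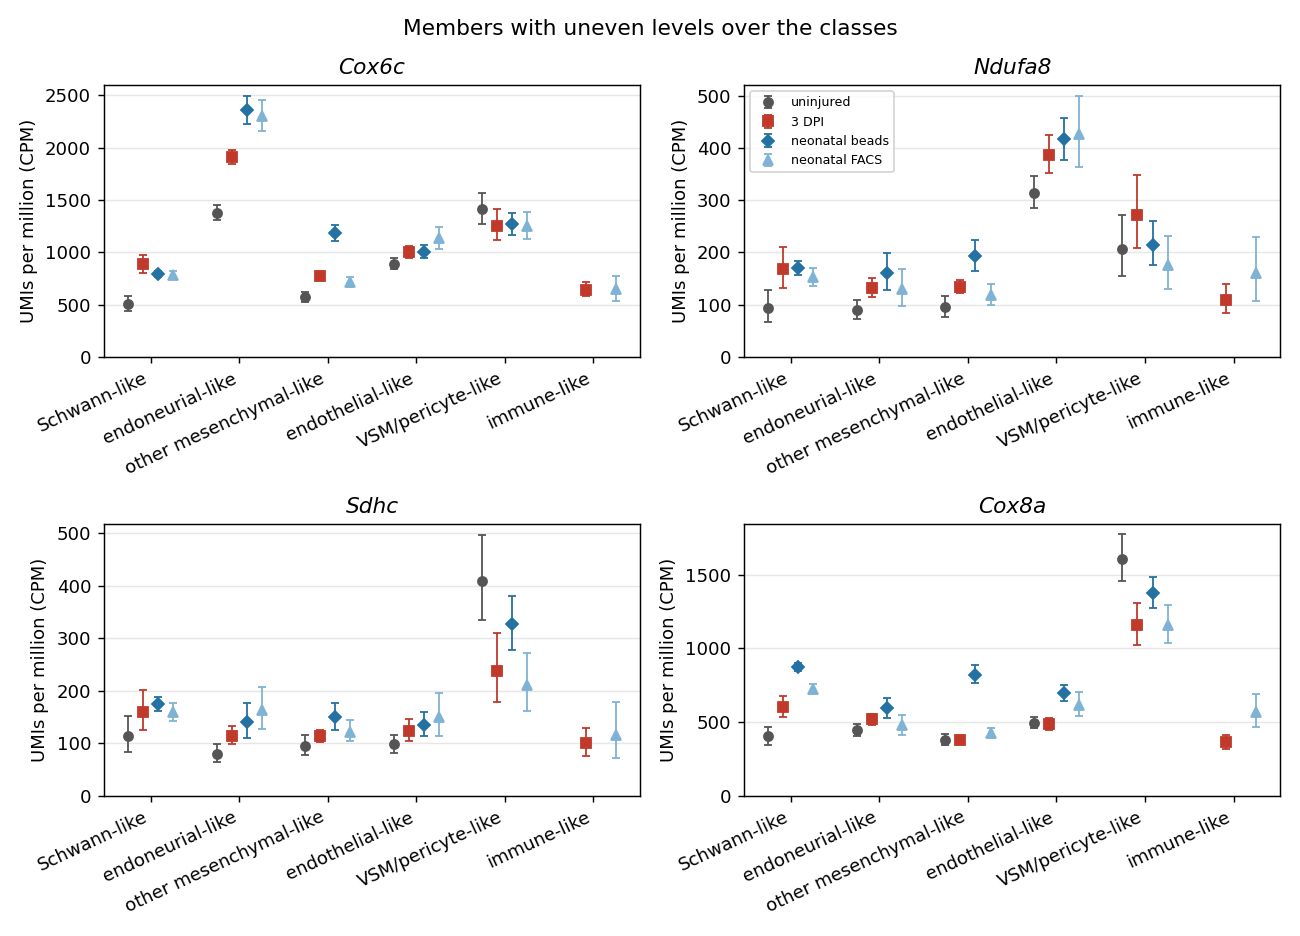
Level in CPM (vertical axis) of Cox6c, Ndufa8, Sdhc and Cox8a by class (horizontal axis) and library (colour and shape), with exact 95% Poisson intervals. Cox6c peaks in endoneurial-like, Ndufa8 in endothelial-like and Sdhc and Cox8a in VSM/pericyte-like cells, and in uninjured nerve Cox6c is as high in VSM/pericyte-like cells.

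In uninjured nerve the members with the largest ratio of the highest class to the median class, after Cox4i2 and Ndufa4l2, were Sdhc (4.2-fold), Cox8a (3.60-fold) and Ndufa8 (3.33-fold).

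The muscle isoforms Cox6a2 and Cox8b were rare. Cox6a2 had 7 UMIs in uninjured Schwann-like cells, 4 at 3 DPI and 0 in the kept neonatal cells. Cox8b had 4 UMIs in uninjured Schwann-like cells and 2 in uninjured endothelial-like cells. In the kept neonatal cells it had 0, and its 15 UMIs of the FACS library were all in barcodes that had been removed. All 7 Cox6a2 UMIs and 3 of the 4 Cox8b UMIs came from 2 cells that also held 484 of the 490 skeletal muscle marker UMIs of the uninjured Schwann-like class. In that class 7 of 8 skeletal muscle markers were detected, with a summed level of 1181 CPM and Myh1 at 0, against 6.73 to 74.6 CPM in the other classes and libraries. Members made up 6.27% of the UMIs of the 2 cells and 1.63% of those of the class without them. Cox7a1, known from heart and skeletal muscle, made up 7.27% (3.81 to 12.4) of Cox7a1 and Cox7a2 UMIs in uninjured Schwann-like cells and 6.88% (3.90 to 11.1) in uninjured VSM/pericyte-like cells. Only 3 of its 12 Schwann-like UMIs were in the 2 cells. In uninjured endothelial-like cells it had 0 UMIs beside 603 of Cox7a2, with an exact interval that reached 0.610% of the pair.

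Cox6b2, known as the testis isoform of Cox6b1, was detected in every class of at least 50 cells. It made up 13.1% (9.83 to 17.0) of the pair's UMIs in other mesenchymal-like cells of the uninjured nerve, 17.0% (14.3 to 20.1) in the bead library and 10.2% (7.94 to 12.8) in the FACS library, but 3.8% (2.92 to 4.84) at 3 DPI. In VSM/pericyte-like cells the shares were 4.17% uninjured, 7.69% at 3 DPI, 9.44% in the bead library and 14.5% in the FACS library. Endothelial-like cells had at most 2.72%. Cox7b2 had 3 UMIs at 3 DPI, in endothelial-like cells, and 1 in the FACS library.

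At 3 DPI the members' share of UMIs was higher than in uninjured nerve in Schwann-like, endoneurial-like, other mesenchymal-like and endothelial-like cells, and lower in VSM/pericyte-like cells as a class. The summed ratio was 1.48 (1.45 to 1.51) in endoneurial-like, 1.41 (1.37 to 1.45) in Schwann-like, 1.22 (1.2 to 1.24) in other mesenchymal-like, 1.13 (1.11 to 1.15) in endothelial-like and 0.855 (0.827 to 0.883) in VSM/pericyte-like cells. All 5 complexes lay above 1 in the former 4 classes. In endoneurial-like cells ATP synthase had the highest summed ratio (1.63) and complex II the lowest (1.16), and in Schwann-like cells complex III had the highest (1.55) and complex I the lowest (1.30). Median depth moved with the conditions, from 2166 to 4529.5 UMIs per endoneurial-like cell and from 983 to 1921.5 per Schwann-like cell. With every cell thinned to 500 UMIs the ratios were 1.41, 1.31, 1.07, 1.07 and 0.882 in the order above. Cytoplasmic ribosomal protein genes, which share the denominator, had ratios of 2.08, 2.64, 1.52, 1.34 and 1.71. Other mesenchymal-like cells at 3 DPI held a cluster led by C1qtnf3 and Dlk1 (326 cells, 1.87% member UMIs) and a Top2a-led cluster (150 cells, 2.12%). No uninjured cluster of the class was led by these genes. Clusters led by Inmt and Comp had 1.40% (1.37 to 1.43) at 3 DPI and 1.34% (1.32 to 1.37) in uninjured nerve. Make-up and change within cells cannot be told apart from the summed ratio of this class.

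The direction of the summed ratio in VSM/pericyte-like cells depended on which uninjured cells were compared. Against the Myh11-led uninjured cells alone the summed ratio was 0.689, with 1 of 74 members higher and 32 lower by 1.5-fold (34.9 and 20.7% of all genes). Against the Rgs5-led uninjured cells alone it was 1.40, with 33 of 75 higher and 2 lower (26.3 and 20.5% of all genes). For the bead library over the Myh11-led cells, 3 of 77 members were higher and 20 lower (38.7 and 17.1% of all genes), and over the Rgs5-led cells 42 of 76 were higher and 2 lower (29.3 and 23.5%). These comparisons were added after the split had been seen. The make-up of the class and a change within its cells cannot be told apart from the summed ratio.

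Counted singly, 27 of 74 members were at least 1.5-fold higher at 3 DPI in Schwann-like cells and 1 was lower, where 31.1% of all genes were higher and 23.1% lower. In endoneurial-like cells 31 of 77 were higher and 1 lower (32.3 and 16.3% of all genes). These shares of members higher were near the background, while few members were lower. The median member ratio was 1.34 in Schwann-like cells, beside 1.10 over all genes, and 1.39 in endoneurial-like cells, beside 1.17. In other mesenchymal-like cells 7 of 77 members were higher and 3 lower (30.9 and 14.3% of all genes; median ratio 1.2 beside 1.17). In endothelial-like cells 4 of 78 were higher and 1 lower (17.4 and 14.6%; 1.13 beside 1.02). In VSM/pericyte-like cells 2 of 76 were higher and 12 lower (26.1 and 20.5%; 0.868 beside 1.05). For all but 9, 6, 6, 5 and 7 members in these classes the minimum of 20 UMIs was met.

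**Figure D4:**
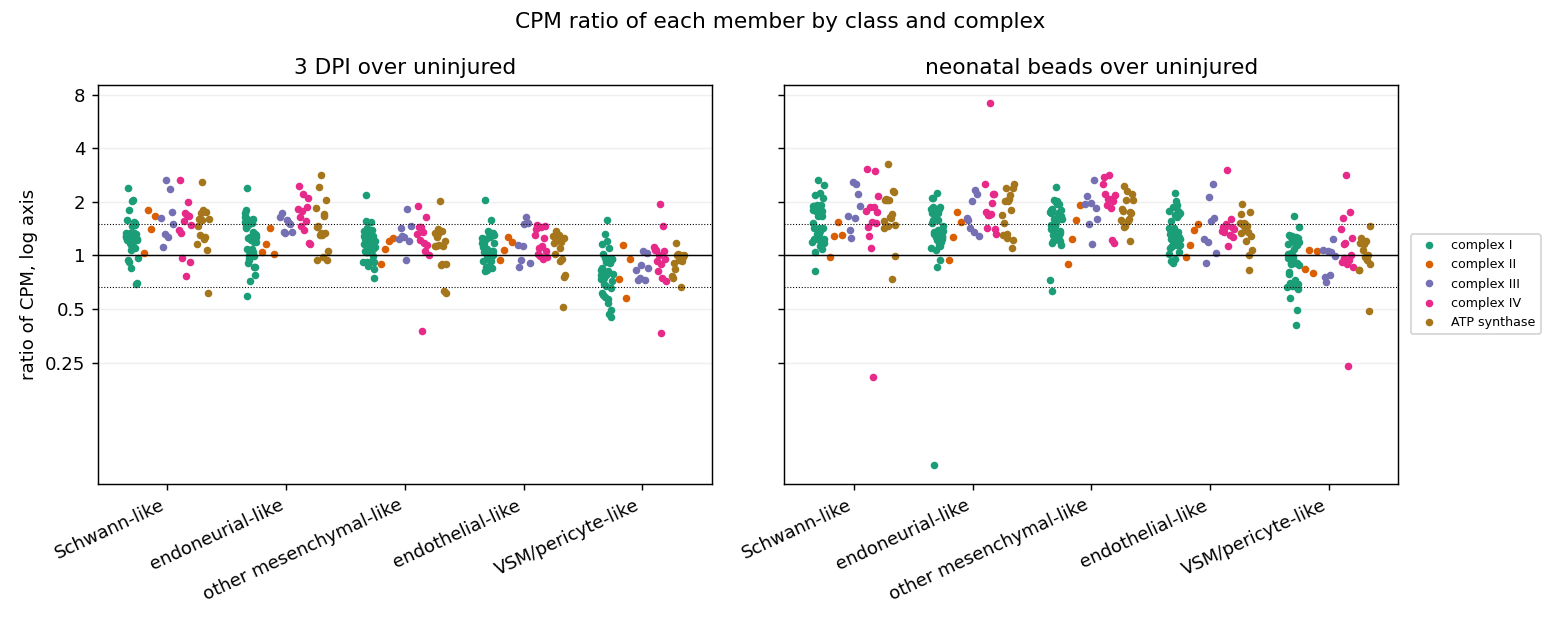
Ratio of CPM (log axis) of each member with at least 20 UMIs over both groups, by class (horizontal axis) and complex (colour), at 3 DPI (left) and in the neonatal bead library (right) over uninjured nerve. Dotted lines mark 1.5-fold, and most members lie above 1 except in VSM/pericyte-like cells.

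Some members had high ratios in several classes. Cox5a, a matrix-side subunit of complex IV, went from 116 to 306 CPM in Schwann-like cells, a ratio of 2.64 (1.89 to 3.75), and had ratios of 2.47 (1.99 to 3.10) in endoneurial-like and 1.89 (1.54 to 2.32) in other mesenchymal-like cells. Atp5g3, a gene for the ring subunit c, was at 196 CPM in uninjured and 558 CPM in 3 DPI endoneurial-like cells, a ratio of 2.84 (2.44 to 3.32), and at 2.01 (1.75 to 2.33) in other mesenchymal-like cells. Its paralog Atp5g1 had 2.58 (1.55 to 4.47) in Schwann-like cells, where Uqcrc1, a core protein of complex III, had 2.64 (1.82 to 3.90). Atp5e went from 312 to 757 CPM in endoneurial-like cells, a ratio of 2.42 (2.14 to 2.75). Uqcrfs1, the Rieske iron-sulfur protein of complex III, was at least 1.5-fold higher in 4 classes, with 2.37 (1.55 to 3.72) in Schwann-like and 1.64 (1.29 to 2.09) in endothelial-like cells. Ndufa4 had 2.38 (1.90 to 2.99) in Schwann-like and 2.39 (2.08 to 2.76) in endoneurial-like cells but 0.60 (0.434 to 0.822) in VSM/pericyte-like cells. The uninjured VSM/pericyte-like class held Myh11-led and Rgs5-led cells, and the 3 DPI level of Ndufa4 lay between theirs. Make-up and change within cells cannot be told apart for this ratio. Cox5a overlaps an exon of Gm26631 on the opposite strand.

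Ndufa4l2 differed in direction between classes at low levels. It was at 14.9 CPM in uninjured and 32.5 CPM in 3 DPI other mesenchymal-like cells (2.18, 1.26 to 4.02), and at 18.3 and 37.6 CPM in endothelial-like cells (2.06, 1.22 to 3.55). In endoneurial-like cells it was at 29.1 and 17.2 CPM (0.591, 0.337 to 1.03). Ndufs1, an iron-sulfur subunit of complex I, had a ratio of 1.59 (1.03 to 2.45) in endothelial-like cells and 0.469 (0.232 to 0.900) in VSM/pericyte-like cells.

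Few members were lower outside VSM/pericyte-like cells. Atp5l, subunit g of ATP synthase, was lower in endothelial-like cells (0.514, 0.317 to 0.813), other mesenchymal-like cells (0.633, 0.419 to 0.973) and Schwann-like cells (0.613, 0.217 to 1.63), but a copy of it, Atp5l-ps1, is listed separately and reads may be split between them. Cox6b2 went from 47.8 to 18 CPM in other mesenchymal-like cells (0.376, 0.254 to 0.561). The next lowest were Ndufs5 (0.689, 0.402 to 1.17) and Ndufv1 (0.704, 0.443 to 1.11) in Schwann-like cells and Ndufb4 (0.716, 0.554 to 0.924) and Ndufs8 (0.780, 0.599 to 1.02) in endoneurial-like cells, all subunits of complex I. Atp5s was low in other mesenchymal-like cells (0.612, 0.276 to 1.46) and endothelial-like cells (0.760, 0.322 to 1.72), as was Atp5sl in endothelial-like cells (0.772, 0.436 to 1.34). The name rule takes in Atp5s and Atp5sl, which are not regarded as core subunits. Apart from Atp5l in 2 classes, Cox6b2 and Ndufb4, the intervals of these low ratios included 1.

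In VSM/pericyte-like cells the lowest ratios were those of Cox7a1 (0.368, 0.105 to 1.07), of Ndufs7, a complex I subunit next to the quinone site, which was at 362 CPM in uninjured nerve and 162 CPM at 3 DPI (0.449, 0.298 to 0.665), and of Ndufs1. Sdhc was also lower (0.579, 0.409 to 0.813), with a 3 DPI level between those of the Myh11-led and Rgs5-led uninjured cells. The ratios of single members in this class use both kinds of uninjured cell together. Make-up and change within cells cannot be told apart for them. The highest were Cox6b2 (1.93, 0.757 to 5.32), Ndufb4 (1.58, 0.970 to 2.61) and Cox7a2l (1.46, 0.981 to 2.18), each with an interval that included 1. The intervals of 20 members lay below 1 and those of 0 members above it. The same count is not given over all genes, so these numbers have no background to be read against.

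Within complex II, the point values differed between subunits. At 3 DPI over uninjured nerve, Sdha had ratios of 1.03 (0.665 to 1.59) in Schwann-like and 1.04 (0.797 to 1.37) in endoneurial-like cells. In Schwann-like cells Sdhb went from 200 to 359 CPM (1.79, 1.37 to 2.37) and Sdhd from 74.7 to 124 CPM (1.66, 1.05 to 2.66). Sdhc had 1.41 (0.961 to 2.08) there and 1.43 (1.10 to 1.88) in endoneurial-like cells. The intervals of Sdha and Sdhb overlapped in Schwann-like cells, which does not decide whether the ratios differ, and the difference was not tested.

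In the neonatal bead library, summed ratios to uninjured nerve were higher than at 3 DPI in each class. They were 1.64 (1.60 to 1.68) in Schwann-like, 1.67 (1.63 to 1.71) in endoneurial-like, 1.74 (1.70 to 1.77) in other mesenchymal-like, 1.37 (1.34 to 1.39) in endothelial-like and 0.990 (0.964 to 1.02) in VSM/pericyte-like cells. The 2 comparisons share the uninjured cells. With the FACS library in place of the bead library the ratios were 1.47, 1.54, 1.22, 1.39 and 0.920 in the same order, so other mesenchymal-like cells differed most between the neonatal preparations. The FACS Schwann-like values here and below include the cells of the cluster led by Pmel and Dct. In VSM/pericyte-like cells the ratio was 0.799 against the Myh11-led and 1.63 against the Rgs5-led uninjured cells, and 1.15 with every cell thinned to 500 UMIs.

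Members at least 1.5-fold higher numbered 45 of 77 in bead Schwann-like cells (31.8% of all genes), 41 of 76 in endoneurial-like (29.8%), 49 of 76 in other mesenchymal-like (27.1%), 25 of 77 in endothelial-like (22.9%) and 4 of 77 in VSM/pericyte-like cells (28.4%). Those lower numbered 1, 1, 1, 0 and 6, where 22.9, 19.1, 18.6, 18.3 and 18.4% of all genes were lower. The median member ratio was 1.63, 1.56, 1.64, 1.36 and 1.01, beside 1.09, 1.14, 1.12, 1.08 and 1.10 over all genes. In the FACS library 38 of 77, 35 of 75, 6 of 76, 34 of 76 and 5 of 77 members were higher (30.1, 29.1, 22.5, 23.7 and 32.9% of all genes), and 2, 2, 1, 2 and 11 were lower (20.8, 21.9, 19.4, 25.7 and 19.8%). Of 74 members measured in all 5 classes, 37 had a ratio above 1 in each with beads (27.6% of all genes), and with FACS 24 of 73 did (25.5%). Ndufb5, an accessory subunit of complex I, was at least 1.5-fold higher in each class with beads (1.66 to 2.67) and had ratios of 1.13 to 2.25 with FACS. It was the 1 member of 74 with that pattern (4.46% of all genes with beads), and with FACS 0 of 73 had it (4.71%).

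In bead Schwann-like cells Atp5g1 had 3.25 (2.11 to 5.29), Cox5a 3.06 (2.29 to 4.17) and Cox7a2l 2.99 (2.27 to 4.02). Cox4i1 went from 551 to 1386 CPM in endoneurial-like cells (2.52, 2.25 to 2.81). Uqcrfs1 had 2.64 (1.90 to 3.71) in other mesenchymal-like and 2.51 (2.0 to 3.16) in endothelial-like cells, and Cox5a had 2.76 (2.20 to 3.48) in other mesenchymal-like cells. Cox6b2 was the highest in 4 classes, with 7.18 (3.19 to 18.2) in endoneurial-like, 2.82 (2.0 to 4.04) in other mesenchymal-like, 3.02 (1.33 to 7.49) in endothelial-like and 2.82 (1.32 to 6.95) in VSM/pericyte-like cells, from 7.51, 47.8, 6.86 and 31.8 CPM in uninjured nerve. In Schwann-like cells it was at 21.7 CPM uninjured and 23.9 CPM with beads. The FACS library did not repeat this in each class, with Cox6b2 at 130 CPM in VSM/pericyte-like, 53.2 in other mesenchymal-like, 17.0 in endoneurial-like and 2.69 in endothelial-like cells.

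The lowest neonatal bead ratios included those of other isoforms. Cox7a1 was at 5.98 CPM in bead and 28.9 CPM in uninjured Schwann-like cells (0.207, 0.0995 to 0.454) and at 14.3 and 59.6 CPM in VSM/pericyte-like cells (0.240, 0.0826 to 0.624). Ndufa4l2 had 1 UMI in bead and 31 in uninjured endoneurial-like cells, a ratio of 0.0662 with a counting interval of 0.00162 to 0.397, and 0.633 (0.232 to 1.59) in other mesenchymal-like cells. Atp5k, subunit e of ATP synthase, was lower in Schwann-like (0.740, 0.620 to 0.888), endothelial-like (0.826, 0.703 to 0.968) and VSM/pericyte-like cells (0.487, 0.380 to 0.624). Ndufa1, an accessory subunit of complex I, had 0.726 (0.590 to 0.892) in other mesenchymal-like cells, and Ndufs1 had 0.405 (0.232 to 0.697) in VSM/pericyte-like cells. Sdha stayed between 0.840 and 0.983 in the 5 classes.

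Within Schwann-like cells of the uninjured nerve, the ratio of the member share of myelinating to that of non-myelinating cells was 1.0 (0.946 to 1.06) over 81 and 278 cells. Single members were higher in 9 and lower in 10 of 72 cases (18.9 and 34.8% of all genes). The highest were Uqcrfs1 (2.5, 1.14 to 5.39), Cox7a2l (2.41, 1.33 to 4.31) and Cox5a (2.17, 1.16 to 3.99), and the lowest were the complex I subunits Ndufa12 (0.354, 0.137 to 0.776) and Ndufv3 (0.357, 0.148 to 0.745) and Sdha (0.40, 0.123 to 1.02). In the neonatal bead library premyelinating Schwann-like cells had 3.19% (3.15 to 3.24) member UMIs and non-myelinating cells 2.63% (2.61 to 2.64). FACS cells had 2.49% (2.46 to 2.52) in the non-myelinating and 2.31% (2.27 to 2.34) in the myelinating group. The FACS non-myelinating group, of 755 cells, consisted mostly of cells of the cluster led by Pmel and Dct, so its value rests mainly on that cluster. By point value the order of the groups was not the same in both neonatal libraries. The FACS premyelinating group, at 35 cells and so under the minimum of 50, had 2.38% (2.23 to 2.55). That interval included both other FACS values, and the order was not tested. The bead myelinating group, of 32 cells, had 1.98% (1.84 to 2.12).

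Markers of proliferation moved with some of these groups. Mki67 and Top2a together were at 910 CPM in Schwann-like cells at 3 DPI and 55.4 CPM in uninjured nerve, and at 457 and 10.9 CPM in other mesenchymal-like, 53.5 and 0.938 in endoneurial-like, 201 and 6.86 in endothelial-like and 202 and 0 CPM in VSM/pericyte-like cells. In other mesenchymal-like cells at 3 DPI, the Top2a-led cluster had a summed member ratio of 1.28 (1.26 to 1.30) to the other cells of the class, with 15 of 77 members higher and 3 lower (23.4 and 22.1% of all genes), led by Cox5a (2.18, 1.88 to 2.53), Cox7a2 (1.89, 1.68 to 2.11) and Ndufa9 (1.87, 1.41 to 2.5). In neonatal bead Schwann-like cells the Top2a-led cluster had 0.934 (0.922 to 0.947), with 1 of 77 members higher and 1 lower (13.7 and 17.3%). Their part in the differences between conditions was not tested.

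The mitochondrially encoded subunits did not follow the nuclear ones in each class. Of the 13 such genes, 10 are listed and mt-Nd3, mt-Nd4l and mt-Atp8 are not used here. Of the listed genes mt-Co2, mt-Co3 and mt-Atp6 were at or near 0 UMIs in these cells, so the sums rest on the other 7. At 3 DPI over uninjured nerve their summed ratio was 1.51 (1.44 to 1.58) in Schwann-like cells, where the nuclear members had 1.41. It was 0.664 (0.641 to 0.688) in endoneurial-like and 0.672 (0.652 to 0.692) in other mesenchymal-like cells, where nuclear members had 1.48 and 1.22. In endothelial-like cells it was 1.01 (0.977 to 1.04), and in VSM/pericyte-like cells 0.624 (0.591 to 0.657). The gene with the highest ratio in Schwann-like cells was mt-Nd1 (1.98, 1.81 to 2.17), and those with the lowest in endoneurial-like cells were mt-Nd5 (0.462, 0.409 to 0.523) and mt-Nd2 (0.536, 0.478 to 0.60). There mt-Nd6 went the other way (1.75, 1.27 to 2.43). By the 1.5-fold size 1 was higher and 0 lower of 7 in Schwann-like, 1 and 4 in endoneurial-like, 0 and 3 in other mesenchymal-like, 1 and 0 in endothelial-like and 1 and 4 in VSM/pericyte-like cells. In the bead library the mitochondrially encoded ratios were 1.72, 1.28, 1.26, 1.46 and 0.837 in Schwann-like, endoneurial-like, other mesenchymal-like, endothelial-like and VSM/pericyte-like cells. The mitochondrial rRNA genes mt-Rnr1 and mt-Rnr2 were lower at 3 DPI in every class (0.358 to 0.568). Cells with over 10% mitochondrial UMIs had been removed.

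Other metabolic genes were given by list, and their counts are read against all genes measured in the same class. At 3 DPI 31.1, 32.3, 30.9, 17.4 and 26.1% of all genes were at least 1.5-fold higher in Schwann-like, endoneurial-like, other mesenchymal-like, endothelial-like and VSM/pericyte-like cells, and 23.1, 16.3, 14.3, 14.6 and 20.5% were lower. In endoneurial-like cells at 3 DPI, 12 of 16 glycolysis genes were at least 1.5-fold higher and 1 lower, with a summed ratio of 2.20, and in other mesenchymal-like cells 11 of 16 were higher and 1 lower (1.99), against 32.3 and 30.9% of all genes higher. The lactate transporter gene Slc16a3 went from 2.82 to 42.3 CPM in endoneurial-like cells (15.0, 4.91 to 74.8, from 3 UMIs), and the kinase gene Pgk1 from 11.9 to 54.0 CPM in other mesenchymal-like cells (4.52, 2.53 to 8.90). Glycolysis in Schwann-like cells had 6 of 11 higher and 2 lower (1.26), with the lactate dehydrogenase gene Ldhb at 456 CPM uninjured and 193 CPM at 3 DPI. In endothelial-like cells 4 of 13 were higher and 1 lower (1.15), and in VSM/pericyte-like cells 2 of 9 and 4 (0.844). Citric acid cycle genes had 7 of 16 higher and 1 lower in Schwann-like cells (1.38), 5 and 0 in endoneurial-like cells (1.32), 3 and 0 in other mesenchymal-like cells (1.32) and 1 and 0 in endothelial-like cells (1.09), but 1 and 5 of 15 in VSM/pericyte-like cells (0.829). The share higher was above that of all genes in Schwann-like cells (31.1%), near it in endoneurial-like cells (32.3%) and below it in other mesenchymal-like (30.9%) and endothelial-like cells (17.4%). Malate dehydrogenase Mdh2 led in Schwann-like cells (2.68, 1.94 to 3.77) and endoneurial-like cells (2.20, 1.77 to 2.75).

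Fatty acid oxidation genes had 2 of 12 higher in Schwann-like, 3 of 14 in endoneurial-like, 3 of 14 in other mesenchymal-like and 2 of 14 in endothelial-like cells, with 1, 1, 1 and 2 lower, and summed ratios of 1.23, 1.07, 1.04 and 1.01. The shares higher lay below those of all genes in these 4 classes (31.1, 32.3, 30.9 and 17.4%). In VSM/pericyte-like cells 6 of 12 were lower and 1 higher (0.667), where 20.5% of all genes were lower. Assembly factors of the complexes were mixed, with 6 higher and 4 lower of 21, 9 and 4 of 31, 9 and 4 of 34, 2 and 7 of 32 and 1 and 2 of 11 in Schwann-like, endoneurial-like, other mesenchymal-like, endothelial-like and VSM/pericyte-like cells. Among them Surf1, a complex IV assembly factor, was at 61.9 CPM in uninjured and 22.5 CPM in 3 DPI endoneurial-like cells (0.363, 0.232 to 0.557). Other chain subunits and carriers outside the name rule had 4 of 8, 3 of 10, 3 of 10, 1 of 10 and 0 of 7 higher and 0, 0, 0, 2 and 3 lower. Regulators of mitochondrial biogenesis had 1 of 2, 4 of 10, 5 of 9, 0 of 8 and 0 of 1 higher and 0, 2, 0, 0 and 0 lower.

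In the neonatal bead library glycolysis genes had 3 higher and 4 lower of 13 in Schwann-like (0.967), 1 and 3 of 12 in endoneurial-like (1.19), 3 and 1 of 12 in other mesenchymal-like (1.30), 2 and 1 of 13 in endothelial-like (1.03) and 2 and 3 of 10 in VSM/pericyte-like cells (0.867). Citric acid cycle genes had 7, 6, 7, 2 and 0 of 16 higher and 0, 0, 0, 0 and 3 lower over the 5 classes, with summed ratios of 1.44, 1.39, 1.39, 1.21 and 0.844. Of all genes 31.8, 29.8, 27.1, 22.9 and 28.4% were higher and 22.9, 19.1, 18.6, 18.3 and 18.4% lower in these classes with beads. The share of glycolysis genes higher was below that of all genes in each class.

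**Figure D5:**
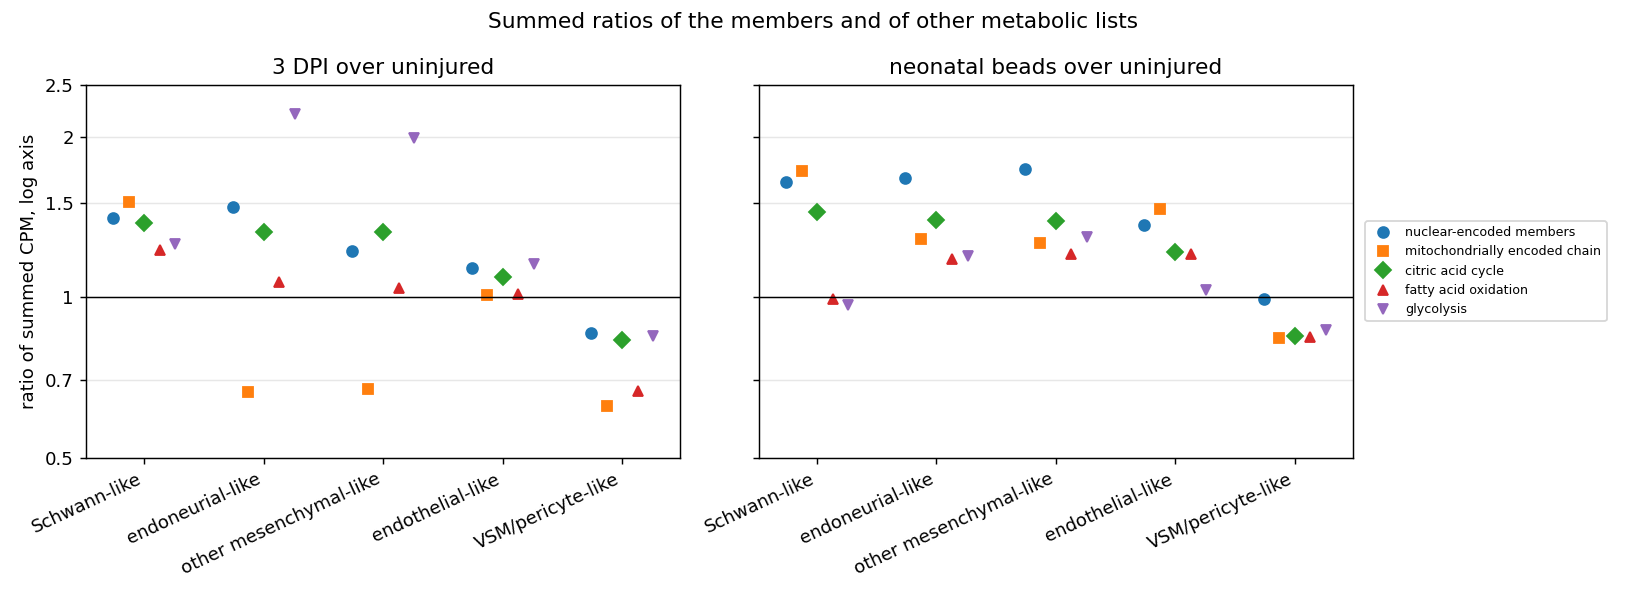
Ratio of summed CPM (log axis) of the members and of 4 other gene lists, by class (horizontal axis), at 3 DPI (left) and in the neonatal bead library (right) over uninjured nerve. At 3 DPI the mitochondrially encoded chain lies below the members and glycolysis above them in both mesenchymal classes.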

How the data were processed

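Drop-seq counts of UMIs per gene and barcode were used as deposited, 1 table for each of the 4 libraries. The authors made these counts with a Drop-seq alignment pipeline, and the submitters' processing notes name mm10, while the aligner, annotation and use of strand were not given in the sources used here. Barcodes with at least 200 genes, at most 10% mitochondrial and at most 5% hemoglobin UMIs were kept, and the 5% with the highest scrublet doublet score in each library were removed. Cells were scaled with scran 1.30.0 and clustered with Seurat 5.3.0 in R 4.3.3 (20 principal components, resolution 0.4), separately for the injured, uninjured and pooled neonatal cells, with members and metabolic lists kept out of the variable genes. A cluster took the class with the highest marker score. UMIs were summed by library and class in Python 3.11.15 (numpy 2.4.6, scipy 1.17.1, scanpy 1.11.5), and figures were drawn with matplotlib 3.10.9. Levels carry exact Poisson intervals, shares exact Clopper-Pearson intervals and ratios exact conditional intervals at 95%. With 1 library a condition no test was made. A gene was called higher or lower at 1.5-fold among genes with at least 20 UMIs over both groups, and a count of 0 was bounded at 3 counts. Genes named in the text were by rule the isoform pairs, the complex II subunits, the 10 members with the most UMIs, the 3 highest and 3 lowest ratios of a class and comparison, and the 5 members most uneven between classes in uninjured nerve, and outside the members the 2 highest and 2 lowest ratios of a list in a class. The members and gene lists were chosen with earlier results of these data known. Totals per library were 4513814 to 8123103 UMIs, which sets the counting error.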

Additional observations from a re-analysis of the deposited data

Results flagged for a closer look

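The summed member ratio of VSM/pericyte-like cells was 0.855 for 3 DPI over uninjured nerve and 0.920 for the neonatal FACS library over uninjured nerve, while the 4 other classes lay above 1 in both comparisons. The difference between classes was not tested, since each condition was 1 library. Both comparisons use the same uninjured cells, which held Myh11-led and Rgs5-led cells. Against the Rgs5-led cells alone the 3 DPI direction was reversed, as given above. The FACS ratio was not recomputed against either kind.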

How the results depend on the processing

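Alternatives were recomputed for the summed ratio and for the numbers of members at least 1.5-fold higher and lower in each class. Clustering at resolution 0.8 moved none of these 30 values beyond its counting error. No paired analysis was possible because each condition was 1 library. Values are ordered Schwann-like, endoneurial-like, other mesenchymal-like, endothelial-like and VSM/pericyte-like, and only those that moved are given. For most alternatives the share of all genes is not given beside the member counts. Those counts therefore show only how far they moved, not a result about the members. The cause was not tested.
With at least 500 genes a barcode, 3 DPI ratios were 1.34 in Schwann-like and 0.814 in VSM/pericyte-like cells with 3 lower and 0 higher, and bead ratios were 1.60 in Schwann-like, 1.85 in other mesenchymal-like and 0.943 in VSM/pericyte-like cells, the last with 2 higher and 11 lower. Without doublet removal 3 members were lower in Schwann-like cells at 3 DPI, and in bead other mesenchymal-like cells the ratio was 1.78 with 0 lower. At most 5% or 20% mitochondrial UMIs gave 2 lower in 3 DPI Schwann-like cells, and 20% gave 0 lower in endoneurial-like cells. Classes set cell by cell from each cell's own markers gave at 3 DPI 3, 0 and 2 lower in Schwann-like, other mesenchymal-like and endothelial-like cells and 0.892 with 0 higher and 7 lower in VSM/pericyte-like cells, and with beads 1.99 in other mesenchymal-like and 1.17 with 15 higher and 3 lower in VSM/pericyte-like cells.
Thinning to 500 UMIs gave at 3 DPI 1.31, 1.41, 1.07 and 1.07 with 3, 2, 6 and 3 lower, 9 higher in endothelial-like and 5 higher in VSM/pericyte-like cells, and with beads 1.59 (0 lower), 1.66 and 1.15 (18 higher) in endoneurial-like, other mesenchymal-like and VSM/pericyte-like cells. Without mitochondrial and ribosomal UMIs the ratios were 1.47, 1.52, 1.24 and 1.16 at 3 DPI, and with beads 1.74 and 1.75, then 1.40 in endothelial-like and 1.02 in VSM/pericyte-like cells. With each cell counted the same they were 1.10, 1.05 and 0.893 in the last 3 classes at 3 DPI and 1.58, 1.60, 1.32 and 1.12 in the last 4 with beads. The FACS library in place of beads gave 1.47, 1.54, 1.22, 1.39 and 0.920, with 2, 2, 2 and 11 lower in Schwann-like, endoneurial-like, endothelial-like and VSM/pericyte-like cells and 6 higher in other mesenchymal-like cells.
With no minimum of UMIs, 2 were lower in both Schwann-like and endoneurial-like cells at 3 DPI, and 5, 2 and 2 in the first 3 classes with beads. At 2-fold, 7, 7, 2, 1 and 0 members were higher and 0, 0, 1, 0 and 4 lower at 3 DPI, and 18, 17, 18, 5 and 1 higher with beads, with 0 lower in other mesenchymal-like cells. Other alternatives were chosen after seeing the data. Without cells holding muscle markers 0 members were lower in Schwann-like cells at 3 DPI. Against Myh11-led uninjured cells the VSM/pericyte-like ratio was 0.689 (1 higher, 32 lower) at 3 DPI and 0.799 (20 lower) with beads. Against Rgs5-led cells the 3 DPI ratio was reversed at 1.40 (33 higher, 2 lower), and the bead ratio was 1.63 (42 higher, 2 lower).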
